A study of Mus musculus with 14 samples.

Results

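MHC class II molecules display peptides from engulfed material to CD4+ T cells, and 7 genes that build or serve them are described here: H2-Aa, H2-Ab1, H2-Eb1, Cd74, Ciita, H2-DMa and H2-DMb1. They were taken as a named list of class II presentation genes, chosen with earlier results of these data known. All 7 were in the count table and all 7 passed the filter on low counts, among 20886 genes tested. They were followed in bulk RNA-seq (12 libraries) and single-nucleus data (2 libraries) of C57BL/6 mice, both from the hand-dissected muscularis, which holds the gut's muscle layers, nerve plexus and interstitial cells. Mice labelled Carmn iKO are written as KO and those labelled WT mTmG as WT. mTmG is a fluorescent reporter allele, and Carmn encodes a smooth muscle lncRNA. The 4 bulk groups are WT colon (libraries tagged t1, t6 and t7), KO colon (m1, t4 and t6), WT jejunum (t1, t6 and t7) and KO jejunum (m1, t1 and t4), with 3 libraries each. Each genotype had 1 library of colon nuclei. The sources used here do not give the driver and timing of the deletion, the age and sex of the mice or any pooling of animals. Nothing in the labels says that the 3 libraries of a group came from separate animals, so p-values measure the spread between these libraries.

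The class II molecule is a pair of chains. H2-Aa encodes the alpha chain and H2-Ab1 the beta chain of the I-A molecule, and H2-Eb1 encodes the beta chain of the I-E molecule. C57BL/6 mice make no I-E on the cell surface because their alpha chain gene is defective, so H2-Eb1 RNA there has no partner chain. Cd74 encodes the invariant chain, which fills the peptide groove during assembly and guides the molecule to endosomes. H2-DMa and H2-DMb1 encode subunits of H2-DM, which removes the last fragment of the invariant chain so that a peptide can bind. Ciita encodes the transactivator that turns the other genes on. It is constitutive in dendritic cells and B cells and inducible by interferon gamma in many other cells, and it acts through factors that sit on the X and Y boxes upstream of class II genes. In the muscularis, resident macrophages are the best known class II positive cells.

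On chromosome 17 of GRCm38, H2-Aa spans 34282744 to 34287823 on the minus strand. H2-Ab1 (34257689 to 34269419), H2-Eb1 (34305867 to 34316674), H2-DMa (34119541 to 34139101) and H2-DMb1 (34153072 to 34160230) lie nearby on the plus strand. Ciita lies on the plus strand of chromosome 16 at 10480059 to 10528418. Exons of H2-DMa overlap those of Brd2, and exons of Ciita those of Dexi, in both cases on the other strand. The sources used here do not say whether counting used strand, so reads of such partners cannot be told apart. H2-DMb1 has a near-identical neighbour, H2-DMb2, and the division of reads between them is uncertain.

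The RefSeq promoter table for GRCm38.p6, which gives 250 bases before and 50 after each start, held promoters of 4 of the 7 genes (5 promoters, of which H2-DMa had 2). An X box core (CCNNGNNAC) followed on the same strand by a Y box core (ATTGG) after 10 to 40 bases, searched on both strands, was found in H2-DMb1 and in 1.76% of the 32851 promoters in the table. A shorter X core, GNAACT, which shares letters with the longer core, was chosen after the sequences had been seen. With the same spacing rule, 1.34% of all promoters held it together with ATTGG, and the promoters of H2-Aa, H2-Eb1 and H2-DMb1 did. These stretches are shown because they carry the same order and nearly the same spacing of letters in 3 genes that varied together in the libraries. Capitals mark GNAACT and ATTGG, and each sequence reads 5′ to 3′ on the gene's strand.
H2-Aa: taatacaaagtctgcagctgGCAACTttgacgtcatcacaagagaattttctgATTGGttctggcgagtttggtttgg
H2-Eb1: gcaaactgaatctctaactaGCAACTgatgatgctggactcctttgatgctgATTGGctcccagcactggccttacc
H2-DMb1: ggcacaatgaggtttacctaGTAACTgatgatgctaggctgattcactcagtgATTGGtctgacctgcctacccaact
The H2-Aa stretch is chr17:34287847-34287924 on the minus strand, the H2-Eb1 stretch chr17:34305756-34305832 and the H2-DMb1 stretch chr17:34153077-34153154, both on the plus strand. The gap between the capitals was 27 bases in H2-Aa, 26 in H2-Eb1 and 27 in H2-DMb1, and ATTGG began 48, 59 and 61 bases before the RefSeq start site. For H2-DMb1 that start lies inside the gene span given above, and so does the stretch shown. Neither pair was found in the 2 promoters of H2-DMa. A match of letters is a description of the sequence and says nothing of what binds there.

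Bulk libraries held 24254905 to 44315104 counts. Carmn, the targeted gene, was checked in every bulk library in CPM, counts scaled to a library total of 1000000 after TMM normalisation. It was 252, 171 and 351 CPM in WT colon, 461, 304 and 718 in KO colon, 240, 206 and 326 in WT jejunum and 996, 817 and 909 in KO jejunum. These bulk values went against the KO label, and every direction given below between WT and KO is between libraries so labelled. In smooth muscle-like nuclei, Carmn was at 1695 CPM (UMIs per 1000000 UMIs) in the WT library and 712 in the KO library. KO colon t4 and KO jejunum m1 stood apart from the other bulk libraries on the leading principal components, and values without them are given where they change a direction.

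In WT colon the 7 genes were at their highest average level, and the libraries spread widely. H2-Ab1, the I-A beta chain, was at 222, 444 and 239 CPM in WT colon, 208, 103 and 92.4 in KO colon, 123, 191 and 74.8 in WT jejunum and 279, 140 and 56.7 in KO jejunum. All 3 KO colon values lay below all 3 WT colon values, and the jejunum groups overlapped. H2-Aa, its alpha chain, was at 181, 453 and 208 CPM in WT colon, 184, 32.9 and 82.1 in KO colon, 108, 162 and 58.7 in WT jejunum and 245, 127 and 46.8 in KO jejunum. The colon groups overlapped for H2-Aa through KO colon m1, which lay just above WT colon t1. H2-Eb1 was at 180, 337 and 227 CPM in WT colon, 211, 34.5 and 71.1 in KO colon, 97.5, 149 and 59.6 in WT jejunum and 217, 135 and 42.3 in KO jejunum. As for H2-Aa, WT colon t6 was the highest library of all and KO colon t4 the lowest.

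The genes that serve the assembled molecule followed the chains. The invariant chain gene Cd74 lies outside the MHC, on the plus strand of chromosome 18 at 60803848 to 60812652 (GRCm38). Cd74 was at 446, 1043 and 501 CPM in WT colon, 449, 123 and 251 in KO colon, 289, 402 and 158 in WT jejunum and 652, 340 and 145 in KO jejunum. KO colon m1 lay just above WT colon t1, so the colon groups overlapped. H2-DMa was at 20.1, 35.5 and 19.4 CPM in WT colon, 16.4, 8.78 and 9.37 in KO colon, 9.24, 15.1 and 5.30 in WT jejunum and 30, 11.6 and 5.95 in KO jejunum. H2-DMb1 was at 22.7, 45.0 and 19.3 CPM in WT colon, 20.8, 11.3 and 15.8 in KO colon, 15.1, 17.8 and 9.16 in WT jejunum and 29.8, 15.5 and 9.42 in KO jejunum. For H2-DMa the colon groups did not overlap, and for H2-DMb1 they did. Ciita, the transactivator, was at 22.1, 39.4 and 22.9 CPM in WT colon, 23.8, 8.64 and 7.22 in KO colon, 8.58, 16.1 and 7.30 in WT jejunum and 18.7, 14.4 and 5.32 in KO jejunum. KO colon m1 was again inside the WT colon range, while t4 and t6 were within or below the WT jejunum range.

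**Figure D1:**
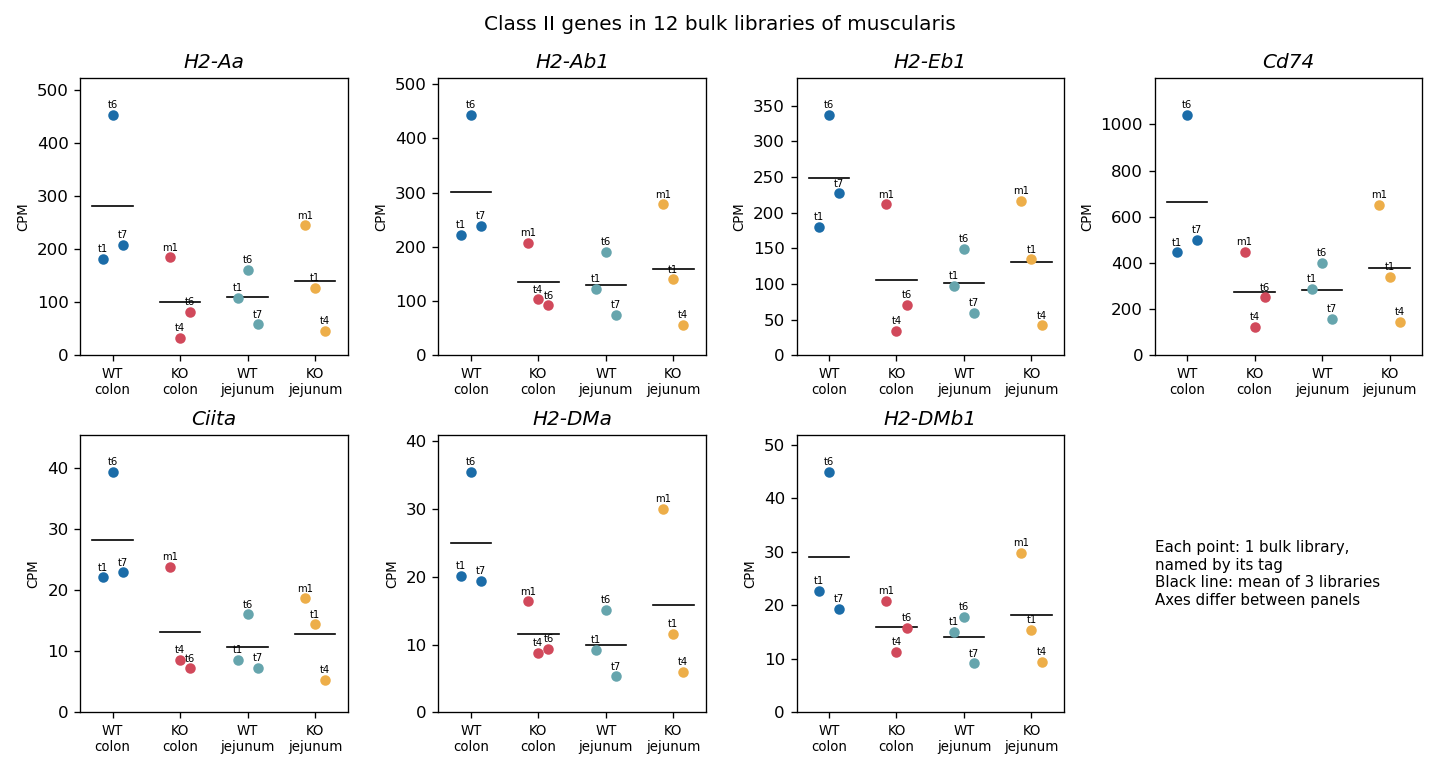
Normalised CPM of the 7 class II genes on linear axes that start at 0, with 1 point per bulk library and a black line at the mean of each group of 3. In every panel WT colon t6 is the highest library, and KO jejunum m1 is the highest of the jejunum libraries.

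Per kilobase of exon the genes kept a near fixed order. In 10 of the 12 libraries the CPM per kilobase ran Cd74, H2-Eb1, H2-Ab1, H2-Aa, H2-DMb1, H2-DMa and Ciita from high to low, and in KO colon t4 and KO jejunum t4 H2-Ab1 and H2-Eb1 changed places. Relative to Cd74 on this scale, H2-Eb1 was at 24.2% to 40.6% (median 30.6%) and H2-Ab1 at 24.1% to 54.7% (median 29.1%), so these 2 neighbours in the order did not differ beyond their spread. H2-Aa was at 11.8% to 19.2% of Cd74, H2-DMb1 at 3.85% to 9.14%, H2-DMa at 1.56% to 3.47% and Ciita at 0.505% to 1.23%. Over the 12 libraries, Pearson's r between log2 CPM of any pair of the 7 genes was between 0.886 (Ciita with H2-DMb1) and 0.995 (H2-Aa with Cd74). These correlations describe libraries that share tissues, genotypes and depth, and no p-value is given for them.

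In bulk colon, the 7 genes were at lower fitted levels in the KO than in the WT libraries, but none passed the test. In the colon nuclei described below, their summed level was higher in the KO library. All 7 fitted bulk values were below 0, as were 49.7% of all genes tested. The log2 fold changes, with standard errors from edgeR, were -1.49 ± 0.71 for H2-Aa, -1.16 ± 0.56 for H2-Ab1, -1.23 ± 0.69 for H2-Eb1, -1.27 ± 0.61 for Cd74, -1.09 ± 0.55 for Ciita, -1.12 ± 0.56 for H2-DMa and -0.86 ± 0.45 for H2-DMb1 (n = 3 and 3). Adjusted p-values from edgeR's quasi-likelihood test with Benjamini-Hochberg adjustment over all genes ran from 0.372 for H2-Aa to 0.454 for H2-Eb1. Called were 0 of 7, beside 0.388% of all genes tested, and at an unadjusted p under 0.05 edgeR gave 0 of 7, beside 14.5% of all genes. DESeq2 and limma voom also called 0 of 7 after adjustment, beside 4.6% and 0.455% of all genes. At an unadjusted p under 0.05, DESeq2 gave 5 of 7 and limma voom 4 of 7. With 1 library left out, the edgeR count at that level ran from 0 to 6 of 7. The share of all genes is not given for those fits, so these counts show only that they rest on the tool and on single libraries. The median of the 7 log2 fold changes was -1.16, beside 0.004 over all genes tested. Groups that did not overlap, with KO below WT, were seen for 2 of 7 genes (H2-Ab1 and H2-DMa), beside 10.4% of all genes (19.2% in either direction), and for these 2 the exact permutation test gave p = 0.1, the smallest that 3 against 3 can give. Without KO colon m1 the median was -1.83, and without WT colon t6 it was -0.76. In these fits 0 of 7 were called, beside 0.836% and 0.0511% of all genes. In bulk tissue, fewer cells of a type and less RNA per cell cannot be told apart.

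In jejunum, the fitted differences between KO and WT were small against their errors and lay above 0. They lay between 0.26 ± 0.55 for Ciita and 0.68 ± 0.56 for H2-DMa on the log2 scale, with a median of 0.36 beside 0.02 over all genes. All 7 were above 0, while 48.4% of all genes were below, and 0 of 7 had groups that did not overlap, beside 22.2% of all genes. By edgeR 0 of 7 were called, beside 0.215% of all genes, and 0 of 7 had an unadjusted p under 0.05, beside 13.2%. The lowest adjusted p by edgeR was 0.644. DESeq2 and limma voom also called 0 of 7, beside 3.85% and 0.364% of all genes. All 7 were below 0 without KO jejunum m1, with a median of -0.23. Macrophage markers had 12 of 12 fitted values above 0, with 0 called and a median of 1.66, and summed to 671, 912 and 278 CPM in WT and 2794, 1129 and 1521 in KO jejunum, so the groups did not overlap in this sum. Their part in the class II values was not tested.

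The colon change minus the jejunum change was tested in the same model. It lay between -1.84 ± 1.0 for H2-Aa and -1.24 ± 0.64 for H2-DMb1, with all 7 below 0, as were 52.1% of all genes. By edgeR 0 of 7 were called, beside 0% of all genes, and each had an adjusted p of 0.941. H2-DMa, with -1.80 ± 0.79, was the 1 gene of 7 with an unadjusted p under 0.05 by edgeR, beside 4.16% of all genes. DESeq2 and limma voom called 0 of 7 after adjustment, beside 0.177% and 0% of all genes. With 1 library left out, the edgeR count at an unadjusted p under 0.05 ran from 0 of 7 to 7 of 7. With all libraries, DESeq2 gave 3 of 7 and limma voom 0 of 7 at that level. The share of all genes is not given for those fits, so these counts show only how far they rest on single libraries and on the tool. The median was -2.14 without KO colon m1, -1.99 without KO jejunum t4 and -0.93 without KO jejunum m1, and 0 of 7 were called after adjustment in each case. A difference between the tissues in how the KO libraries compare with WT was thus not shown at this number of libraries.

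Between tissues of WT mice, all 7 genes had higher levels in each colon library than in any jejunum library, but none passed the test. The log2 differences, colon minus jejunum, were 1.4 ± 0.56 for Ciita, 1.36 ± 0.71 for H2-Aa, 1.34 ± 0.57 for H2-DMa, 1.28 ± 0.69 for H2-Eb1, 1.23 ± 0.61 for Cd74, 1.22 ± 0.56 for H2-Ab1 and 1.05 ± 0.45 for H2-DMb1. The WT colon and WT jejunum libraries did not overlap for any of the 7, with colon higher, beside 11.2% of all genes, and 45.7% of all genes were below 0 in this comparison. With 0 called, fitted values were also above 0 for 11 of 11 epithelial (median 1.49), 6 of 6 plasma cell (1.48), 11 of 11 T lymphocyte (0.69) and 12 of 12 macrophage markers (0.64). So were 9 of 10 dendritic cell (0.60) and 7 of 10 B lymphocyte markers (0.71), again with 0 called. This was not particular to these types: 8 of 8 enteric glia (0.49) and 10 of 10 enteric neuron markers (0.38) were above 0. Of mesothelial markers, 5 of 6 were below 0 (-1.99). The part of these cells in the class II difference was not tested. Without WT colon t6 the median of the 7 was 0.78, beside 1.28 with it. The exact permutation p was 0.1 for each, the smallest that can be given. By edgeR 0 of 7 were called, beside 1.56% of all genes, with adjusted p-values from 0.295 to 0.483. At an unadjusted p under 0.05, edgeR gave 3 of 7 (Ciita, H2-DMa and H2-DMb1), beside 13.1% of all genes. After adjustment, limma voom and DESeq2 called 0 of 7, beside 1.68% and 5.55% of all genes. At an unadjusted p under 0.05, limma voom gave 4 of 7, DESeq2 7 of 7, and edgeR with the tag as a replicate block 7 of 7. The share of all genes at that level is not given for those fits, so these counts show only that they rest on the tool and model. In the KO libraries the same comparison gave -0.48 ± 0.70 for H2-Aa to 0.05 ± 0.55 for Ciita, with 6 of 7 below 0, as were 47.8% of all genes, and 0 of 7 with groups that did not overlap, beside 19.6%. By edgeR 0 of 7 were called there, beside 1.29% of all genes, and 0 had an unadjusted p under 0.05 by edgeR, beside 17.7%. DESeq2 and limma voom also called 0 of 7 there, beside 6.83% and 1.41% of all genes. The comparisons of colon and of jejunum share libraries, so their values are set side by side and not correlated.

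**Figure D2:**
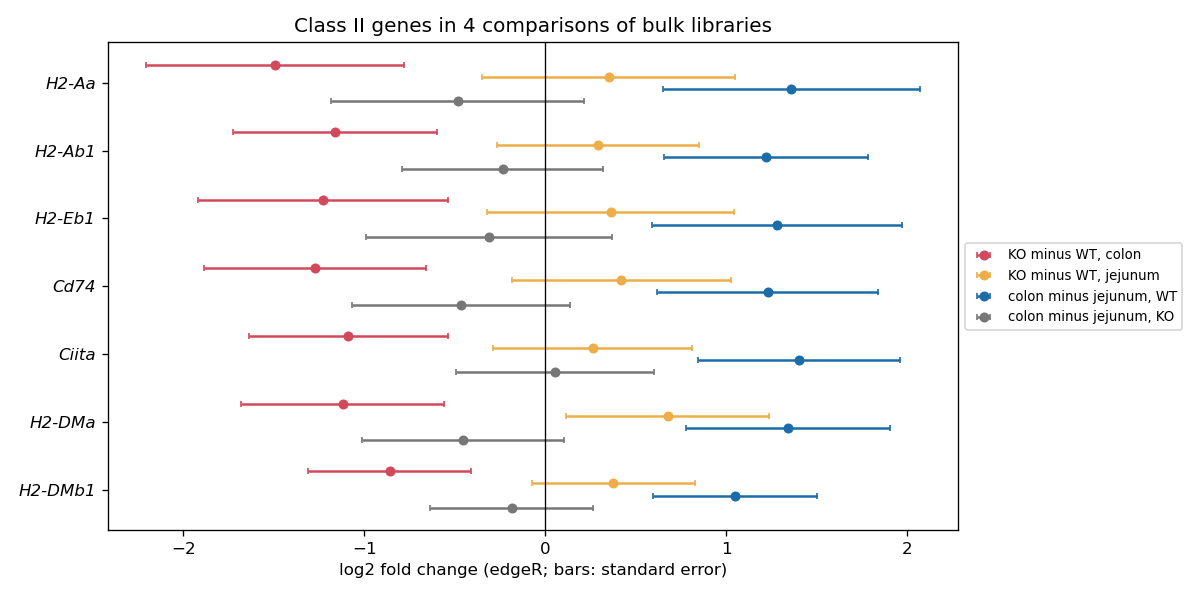
Log2 fold changes of the 7 class II genes in 4 comparisons of bulk libraries, with bars of 1 standard error from edgeR. The KO minus WT values in colon all lie left of 0 and the WT colon minus jejunum values all lie right of 0, while those of the other comparisons have bars that cross or come near 0.

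Other genes of the pathway did not all follow the 7. Among 13 listed partners of class II presentation, 11 were tested, and in colon 9 of the 11 had fitted values above 0 in KO, with 0 called and a median log2 fold change of 0.11. H2-Ob, a subunit of the H2-DM inhibitor H2-O, had -1.22 in colon and 0.23 in jejunum, and H2-DMb2, the neighbour of H2-DMb1, had -0.94 and 0.82. H2-Oa had 0.05 and 0.20, and H2-Eb2 0.06 and 0.34. The proteases that trim the invariant chain and cut antigens had values above 0 in both tissues: Ctss (cathepsin S) 0.11 in colon and 1.84 in jejunum, Lgmn (legumain) 0.81 and 1.34, Ctsl 0.79 and 0.69, Ctsb 0.29 and 0.56, and Ctsd 0.02 and 0.46. Ifi30, a thiol reductase of endosomes, had 0.66 and 0.81, and Marchf1, a ubiquitin ligase that takes class II off the surface, had 0.31 and 2.0. None of these was called in either tissue (lowest adjusted p by edgeR 0.142, for Marchf1 in jejunum), and the median over the 11 in jejunum was 0.69. H2-Ea was not matched in the count table, and H2-Ea-ps was not tested.

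Factors of the X and Y boxes (Rfx5, Rfxank, Rfxap, Nfya, Nfyb, Nfyc and Creb1) were all tested, with 0 of 7 called in either tissue and medians of -0.11 in colon and -0.32 in jejunum. The smallest p-values in colon and jejunum were those of Creb1 (log2 fold change -0.65, adjusted p by edgeR 0.293) and Rfxap (-0.53, 0.249). Of the interferon gamma pathway, 6 of 7 genes were tested and 0 called, and Irf1, a transcription factor that interferon gamma induces, had -0.80 ± 0.24 in colon (adjusted p by edgeR 0.173). Ifng itself had at most 12 counts in any library. Among 12 genes induced by interferon gamma, 10 were tested, and all 10 were below 0 in colon KO with a median of -1.43. Of these, 0 were called, 8 had an unadjusted p under 0.05 by edgeR, beside 7.79% of all genes with a lower level in KO, and 7 had KO libraries that lay wholly below WT, beside 10.4%. The smallest p-values were those of Igtp, an immunity-related GTPase, at -1.47 ± 0.38 (adjusted p by edgeR 0.131), and of Gbp4, a guanylate-binding protein, at -1.39 ± 0.37 (0.133). In jejunum 9 of the 10 were below 0, with a median of -0.52, 0 called and 0 at an unadjusted p under 0.05.

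Class I presentation genes were tested in full (10 of 10). In colon 0 were called and the median was -0.56, with the smallest p-values for the immunoproteasome subunits Psmb10 (-0.80 ± 0.23, adjusted p by edgeR 0.154) and Psmb9 (-1.21 ± 0.42, 0.226). Between WT colon and WT jejunum, 1 of the 10 was called, beside 1.56% of all genes: Nlrc5, the transactivator of class I genes, was higher in colon by 1.68 ± 0.34 on the log2 scale (adjusted p by edgeR 0.0345), at 45.8 ± 11.5 CPM against 14.3 ± 6.34 (SD, n = 3 each). The log2 difference of Ciita, its class II counterpart, was 1.4 and was not called. The costimulation genes Cd40, Cd80 and Cd86 had fitted KO minus WT values above 0 in both tissues, with 0 of 3 called. Their medians were 0.48 in colon and 1.66 in jejunum. In jejunum, KO libraries lay wholly above WT for 3 of 3, beside 22.2% of all genes without overlap in either direction.

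The genes whose profile over the 12 libraries was most like the mean of the 7 class II genes were Tlr11 (r = 0.929), H2-Ob (0.924), Inpp4b (0.914), Psmb9 (0.902), Tbx21 (0.901), Ccl8 (0.900), C6 (0.894), Klrk1 (0.883), B2m (0.877) and Tprkb (0.870). Over all 20879 other genes tested the median r was 0.03 and the 95th percentile 0.509. Tlr11, Tbx21 and Klrk1 are low, with at most 1.95, 1.46 and 2.25 CPM. Listed markers of dendritic cells had a median r of 0.56 over 10 genes, from -0.421 for Zbtb46 and 0.149 for Ccr7 to 0.773 for Clec9a and 0.798 for Xcr1, the last pair markers of cross-presenting dendritic cells. T lymphocyte markers had a median of 0.53 over 11 genes, macrophage markers 0.17 over 12 and B lymphocyte markers 0.17 over 10. The 10 tested genes induced by interferon gamma had r between 0.551 and 0.857.

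Sums of CPM over a list show the same libraries from another side. The 7 class II genes summed to 1094, 2397 and 1237 CPM in WT colon, 1114, 323 and 529 in KO colon, 651, 953 and 373 in WT jejunum and 1471, 784 and 311 in KO jejunum. Macrophage markers summed to 782 to 985 CPM in WT colon and to 795, 2333 and 647 in KO colon m1, t4 and t6. KO colon t4 thus had the highest macrophage sum and the lowest class II sum of the colon libraries. KO jejunum m1 had the highest macrophage sum of all, 2794 CPM, and the highest class II sum of the jejunum libraries, whereas KO jejunum t4, at 1521 CPM of macrophage markers, had the lowest class II sum. Dendritic cell markers summed to 291, 287 and 295 CPM in WT colon and 377, 201 and 434 in KO colon, so that KO colon m1 and t6 lay above all WT colon libraries in this sum while KO colon t6 lay below them in the class II sum. Most of these markers did not follow their sum. In the colon libraries Flt3 was at most 2.08 CPM and Itgax at most 14.4, so both formed a small part of it. In KO minus WT colon, 7 of the 10 had fitted values below 0, with a median of -0.46 and 0 called. For 3 of the 10 the KO colon libraries lay wholly below WT colon, beside 10.4% of all genes, and for 0 wholly above. Epithelial markers, which come from outside the muscle coat, summed to 1761, 3659 and 94.8 CPM in WT colon and 1159, 1305 and 2567 in KO colon. WT colon t7, with the lowest epithelial sum, had a class II sum above WT colon t1, and WT colon t6 was highest in both. The part of these cells in the class II values was not tested.

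**Figure D3:**
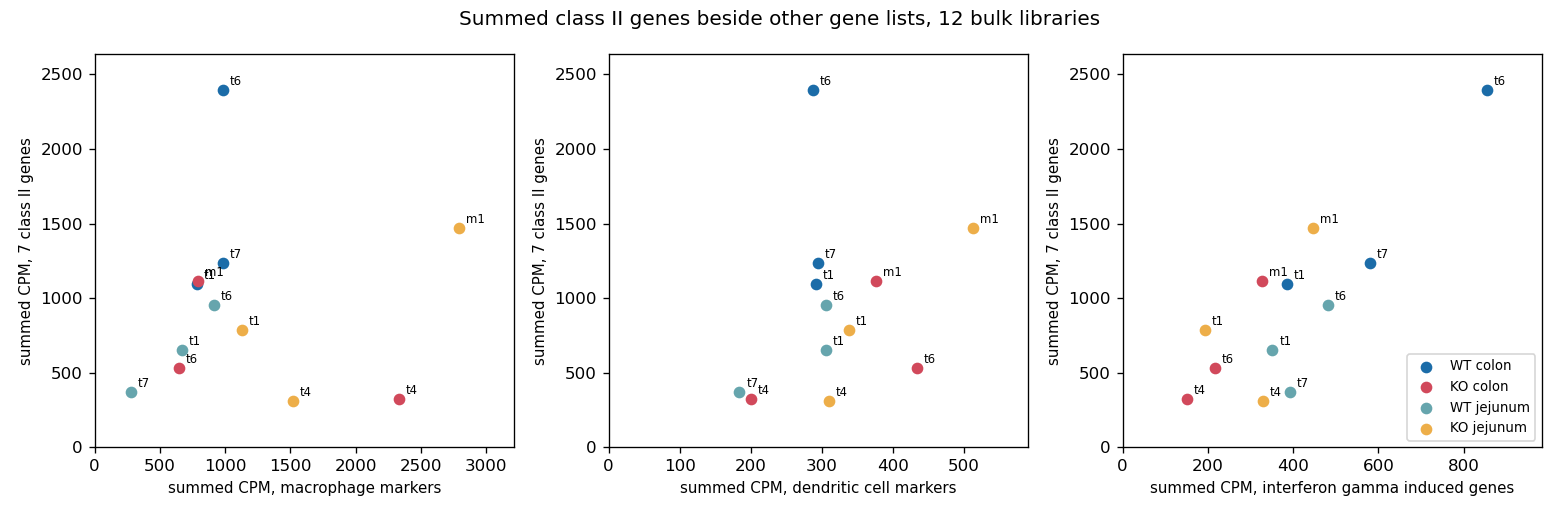
Summed CPM of the 7 class II genes (vertical) against the summed CPM of macrophage markers, dendritic cell markers and genes induced by interferon gamma (horizontal), 1 point per bulk library, on linear axes that start at 0. KO colon t4 and KO jejunum t4 sit low and to the right in the macrophage panel, and WT colon t6 sits at the top right of the interferon gamma panel.

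The nuclei place the same genes in cell types. After filters, 2632 of 3476 barcodes were kept in the WT library and 1592 of 2164 in the KO library, with medians of 1698 and 1984 UMIs (unique molecular identifiers, each standing for 1 captured RNA molecule). The libraries shared 11 barcodes, 4 of them among kept nuclei. Scrublet marked 7 nuclei (0.265%) and 2 nuclei (0.126%) as doublets, which were removed, and such low shares leave most doublets in place. The nuclei fell into 23 clusters, formed without the 7 genes or the other pathway genes, and these were joined into 14 groups, of which 10 carry a cell type name from listed markers. With 1 library per genotype there is no test between WT and KO nuclei. Intervals are exact 95% Poisson intervals of counts, or exact 95% binomial intervals (Clopper-Pearson) of shares, and cover counting error only. The 7 genes had 997 UMIs in WT and 1279 in KO nuclei, which is 121 (113 to 128) and 209 (198 to 221) per 1000000 UMIs. This summed level was higher in the KO library, whereas all 7 fitted values of bulk colon were lower in KO. The source of this difference was not tested.

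Macrophage-like nuclei (markers such as Csf1r, Mrc1 and Adgre1) carried the highest class II level among the 14 groups. The 7 genes summed to 1931 CPM (1644 to 2254) in 50 WT nuclei and 2064 (1891 to 2248) in 142 KO nuclei, so the intervals overlapped. Smooth muscle-like nuclei stood at 28.5 (21.3 to 37.4) in 635 WT nuclei and 39.6 (26.7 to 56.5) in 223 KO nuclei. Macrophage-like nuclei were thus 67.8 times above smooth muscle-like nuclei in WT and 52.2 times in KO. At least 1 class II UMI was found in 74.0% (59.7% to 85.4%) of WT and 76.1% (68.2% to 82.8%) of KO macrophage-like nuclei at medians of 1029 and 1056 UMIs. In smooth muscle-like nuclei, which are deeper (medians of 2159 and 2592 UMIs), the share was 7.56% and 10.3%. Of their 82 class II UMIs, 34 came from H2-DMa, and the source of these UMIs was not tested. Thinned to 500 UMIs per nucleus, with no nucleus left out, the shares were 56.0% and 58.5% in macrophage-like and 1.57% and 1.35% in smooth muscle-like nuclei. Macrophage-like nuclei were 1.90% (1.41% to 2.50%) of WT and 8.92% (7.56% to 10.4%) of KO nuclei, and held 16.1% of the class II UMIs of the WT and 41.1% of those of the KO library. Macrophage markers within them summed to 1931 CPM in WT and 5105 in KO. The WT group also held 11 UMIs of Clec9a and 223 of the smooth muscle gene Myh11, and the part of other cells in its class II level was not tested.

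**Figure D4:**
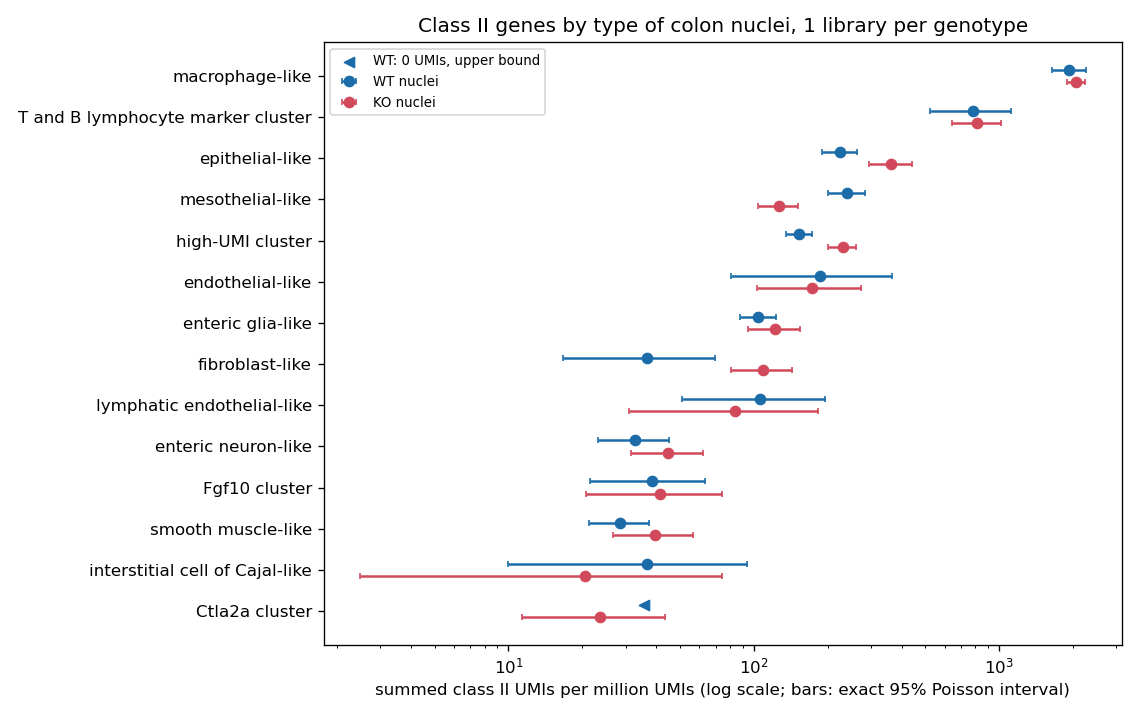
Summed UMIs of the 7 class II genes per 1000000 UMIs by group of colon nuclei, on a log axis, with exact 95% Poisson intervals, WT in blue and KO in red (1 library each). Macrophage-like nuclei lie highest, smooth muscle-like nuclei near the bottom, and epithelial-like, mesothelial-like and enteric glia-like nuclei between them; the arrowhead is the upper bound where no UMI was found.

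Within macrophage-like nuclei, the chains, Cd74 and Ciita were of similar order. Cd74 was at 456 CPM (38 UMIs) in WT and 541 (138 UMIs) in KO, H2-Eb1 at 444 (37) and 420 (107), H2-Aa at 348 (29) and 400 (102), and H2-Ab1 at 240 (20) and 365 (93). Ciita was at 360 (30 UMIs, interval 243 to 514) in WT and 232 (59 UMIs, 176 to 299) in KO, with overlapping intervals. H2-DMa was at 11.99 (1 UMI) and 58.9 (15 UMIs), and H2-DMb1 at 72.0 (6 UMIs) and 47.1 (12 UMIs). UMIs from nuclei include unspliced RNA, so these levels are not set against each other per length. The partners Ctss and Marchf1 were at 396 (33 UMIs) each in WT and at 490 (125) and 565 (144) in KO macrophage-like nuclei, beside 0.548 (1 UMI) and 0 UMIs in WT smooth muscle-like nuclei.

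At a Leiden resolution of 2.0, a setting listed as an alternative, most macrophage-like nuclei parted from a small group with dendritic cell markers. These dendritic cell-like nuclei, 15 in WT and 11 in KO, held 8 and 33 UMIs of Clec9a and 8 and 24 of Flt3, and 1 and 0 of Csf1r. The WT group also held 9 UMIs of the macrophage marker Mrc1, beside 0 in KO, and a class II UMI was found in 6 of its 15 nuclei, beside 10 of 11 in KO. Their class II sum was 1139 CPM (845 to 1501) in WT and 2379 (1865 to 2992) in KO. The macrophage-like nuclei of this setting stood at 2813 (2314 to 3387) in WT, an interval above that of the WT dendritic cell-like nuclei, and at 2197 (1999 to 2409) in KO, where the intervals overlapped. Ciita was at 273 (12 UMIs, interval 141 to 477) in the WT and 847 (26 UMIs, 554 to 1242) in the KO dendritic cell-like nuclei. In KO, the macrophage-like nuclei of the same setting had 160 (33 UMIs, 110 to 225), an interval that lies below that of the dendritic cell-like nuclei. In WT the Ciita level of macrophage-like nuclei was 456 (18 UMIs, 270 to 721), and the intervals of the 2 groups overlapped. Tlr11, whose bulk profile was most like that of the class II genes, had 8 UMIs in the 11 KO and 0 in the 15 WT dendritic cell-like nuclei.

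A cluster with markers of T and B lymphocytes came next, at 781 CPM (523 to 1122) in 30 WT nuclei and 815 (642 to 1020) in 74 KO nuclei. At resolution 2.0 it parted into B lymphocyte-like nuclei at 1504 (991 to 2187) in WT and 1461 (1137 to 1849) in KO, and T lymphocyte-like nuclei at 104 (12.6 to 377) and 152 (61.2 to 314). The class II UMIs of this cluster thus lay mostly in nuclei with B lymphocyte markers, 27 against 2 UMIs in WT and 69 against 7 in KO.

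Nuclei outside the immune cells also carried class II UMIs above the smooth muscle-like level. Epithelial-like nuclei had 224 CPM (190 to 263) in WT and 363 (295 to 442) in KO, and these intervals did not overlap. With at least 1000 UMIs per nucleus they did, at 223 (187 to 263) and 298 (233 to 376). Within epithelial-like nuclei, the cluster led by absorptive genes such as Slc26a3, the chloride exchanger of colonocytes, had 367 (301 to 442) and 462 (370 to 571). The cluster led by 9030622O22Rik and Tpsg1 had 110 (79.1 to 149) and 143 (73.9 to 250). A class II UMI was found in 39.4% of WT and 56.0% of KO nuclei of the absorptive cluster, and in 17.2% and 20.9% after thinning. Cd74 gave 52 of 150 class II UMIs in WT and 27 of 98 in KO epithelial-like nuclei, and Ciita 19 and 6. Macrophage markers summed to 47.8 and 55.6 CPM there, beside 1931 and 5105 in macrophage-like nuclei. The part of RNA from macrophages or other immune cells in the epithelial-like level was not tested.

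Mesothelial-like nuclei, from the serosal lining, had 239 CPM (200 to 284) in WT and 126 (104 to 152) in KO, and these intervals did not overlap. The cluster led by Slpi and C3 had 429 (317 to 567) in WT and 150 (102 to 211) in KO. Ciita had 2 UMIs among 133 in WT and 8 among 114 in KO mesothelial-like nuclei, so it was at 3.60 and 8.88 CPM. Csf1r, a macrophage marker, had 28 and 25 UMIs in these nuclei, while Adgre1 had 0 and 5 and Cx3cr1 1 and 3. The part of macrophage RNA in this level was not tested.

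Enteric glia-like nuclei had 104 CPM (87.6 to 124) in WT and 122 (95.1 to 154) in KO, 3.67 and 3.08 times the smooth muscle-like level. In WT, Ciita gave 30 of their 135 UMIs and Cd74 gave 16, while in macrophage-like WT nuclei Cd74 gave 38 of 161 and Ciita 30. In KO the order was the other way in glia-like nuclei, with 9 of 71 UMIs from Cd74 and 4 from Ciita. Ciita was spread over 22 WT glia-like nuclei with at most 3 UMIs in any, and in KO it had 4 UMIs (6.86 CPM, 1.87 to 17.6, against 23.2, 15.7 to 33.1, in WT). Endothelial-like nuclei had 186 (80.4 to 367) and 173 (103 to 274), from 8 and 18 UMIs, and in KO 6 UMIs of Ciita came from 1 nucleus. Fibroblast-like nuclei had 36.5 (16.7 to 69.3) in WT and 109 (80.7 to 143) in KO, and these intervals did not overlap. The 50 UMIs in KO came from 20 nuclei. Enteric neuron-like and interstitial cell of Cajal-like nuclei, the latter the pacemakers of the gut, had 32.8 and 36.6 in WT and 44.8 and 20.5 in KO, with intervals that overlapped those of smooth muscle-like nuclei. Smooth muscle-like nuclei themselves gave 0.548 CPM of H2-Aa (1 UMI) in WT and 3.96 (3 UMIs) in KO.

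H2-DMa had a lower share of its UMIs in macrophage-like nuclei than the other genes. It gave 2.33% of the class II UMIs of macrophage-like nuclei and 41.5% of those of smooth muscle-like nuclei, both libraries together, and only 6.81% of all H2-DMa UMIs came from macrophage-like nuclei, beside 25% to 36.1% for each of the other 6 genes. By library the H2-DMa share was 0.820% in WT (1 UMI), beside 13.6% to 24.4% for the others, and 13.3% in KO (15 UMIs), beside 36.4% to 50% for the others, while macrophage-like nuclei were 1.90% and 8.92% of the nuclei. In smooth muscle-like nuclei it was at 11.5 CPM (7.12 to 17.6) in WT and 17.1 (9.13 to 29.3) in KO, close to 11.99 (0.304 to 66.8) in WT macrophage-like nuclei and below 58.9 (32.9 to 97.1) in KO macrophage-like nuclei. Brd2, whose exons overlap H2-DMa on the other strand, had 77 UMIs in WT and 46 in KO smooth muscle-like nuclei. The part of Brd2 transcripts in the H2-DMa counts was not tested.

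**Figure D5:**
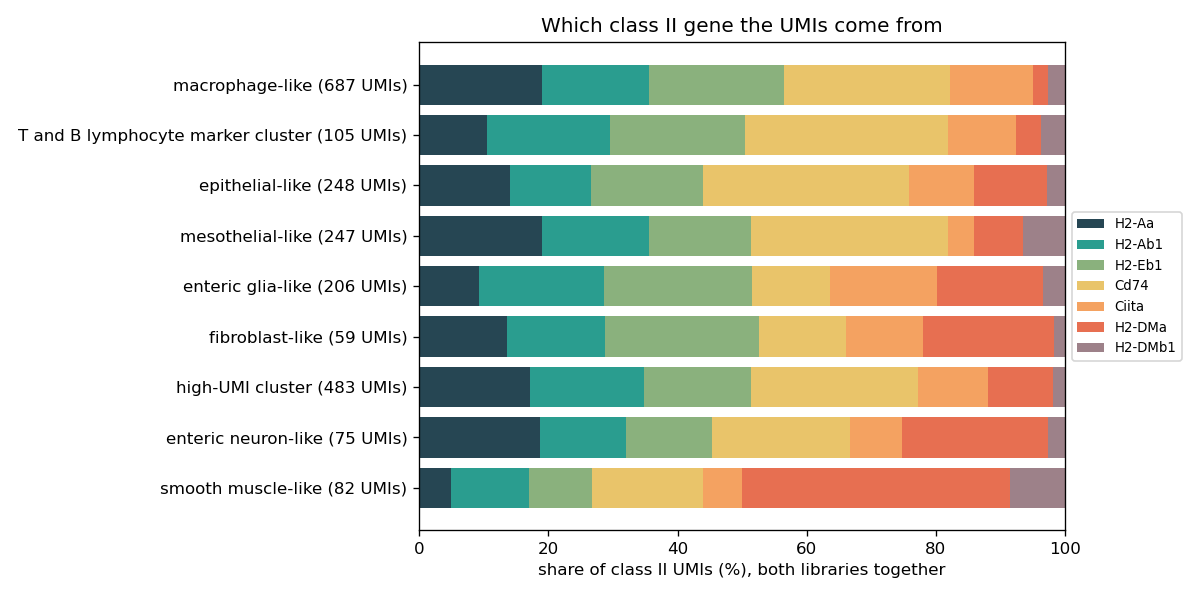
Share of class II UMIs that came from each of the 7 genes, for the 9 groups of nuclei with the most class II UMIs, WT and KO together. H2-DMa takes 2.33% of the bar of macrophage-like nuclei and 41.5% of that of smooth muscle-like nuclei.

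A group of 48 WT and 39 KO nuclei with very high UMI counts (medians of 7944 and 13551) carried markers of several types and was left unnamed, and doublets among them were not resolved by the caller. It held 25.4% of the class II UMIs of the WT and 17.98% of those of the KO library. Its level was 153 (135 to 173) and 230 (201 to 262) CPM, with intervals that did not overlap. Shares of class II UMIs by type therefore leave a large part without a cell type.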

How the data were processed

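The authors deposited raw counts per gene for 12 bulk libraries and, for 2 libraries of colon nuclei, counts per gene and per open region. The submitters' processing notes name STAR 2.0.4b, Subread featureCounts 1.4.5, edgeR and Cell Ranger, with the builds GRCm38 and mm10, and the matrix headers name cellranger-arc 2.0.0; the sources used here do not give strand use or filters. Start and end positions of regions were deposited with the nuclei and carry no measurement of expression.

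Of 40757 rows in the bulk table, 276 duplicates were dropped, and 20886 of 40481 genes passed edgeR's filter. Counts were fitted with edgeR 4.0.16 (R 4.3.3; TMM scaling, quasi-likelihood test, two-sided, 1 mean per group over all 12 libraries), with Benjamini-Hochberg adjustment over all genes tested and a threshold of 0.05. CPM is per 1000000 TMM-scaled counts, and log2 CPM used a prior count of 2. DESeq2 1.42.0 and limma 3.58.1 (voom) were alternatives. The test code was tested on simulated data.

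In both nuclei matrices every gene value was even (0 odd values), whereas 11.6% and 11.5% of region values were odd, so gene values were halved before use as UMIs. That 1 UMI stands as 2 in the files is inferred from the values. Nuclei with at least 500 UMIs, 300 genes and at most 5% mitochondrial UMIs were kept and clustered in scanpy 1.11.5 (2000 variable genes, 30 principal components, 15 neighbours, Leiden resolution 1.0), without mitochondrial, class II and pathway genes. Clusters were named by hand from marker lists, and in the alternatives by their best list.

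The 7 genes and all lists were chosen with earlier results of these data known. Named besides the 7 genes were all tested class II partners, the 10 genes most alike and, from other lists, genes past the threshold or else among the smallest p-values. That last rule was not applied to every list and tissue. Other genes named were chosen after their values were seen. Replicate libraries differed by far more than counting noise (51.7 or more in chi-square per gene).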

Additional observations from a re-analysis of the deposited data

How the results depend on the processing

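No class II gene was called at an adjusted p under 0.05 in any of the 5 comparisons under any alternative run. The direction of all 7 genes held under every alternative in KO minus WT colon, in WT colon minus jejunum and in the difference between the tissues. In KO minus WT jejunum it rested on KO jejunum m1. With 1 library left out at a time, log2 fold changes there ran from -0.35 to 0.75 for H2-Aa, -0.42 to 0.68 for H2-Ab1, -0.23 to 0.77 for H2-Eb1, -0.25 to 0.80 for Cd74, -0.13 to 0.68 for Ciita, -0.19 to 1.11 for H2-DMa and -0.20 to 0.68 for H2-DMb1. Without KO colon t4 and KO jejunum m1 together, a setting chosen after seeing the data, they were -0.35 for H2-Aa, -0.42 for H2-Ab1, -0.23 for H2-Eb1, -0.25 for Cd74, -0.14 for Ciita, -0.19 for H2-DMa and -0.20 for H2-DMb1.

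In KO colon minus jejunum, leaving out 1 library gave -1.28 to 0.18 for H2-Aa, -0.70 to 0.44 for H2-Ab1, -1.31 to 0.24 for H2-Eb1, -1.02 to 0.16 for Cd74, -0.69 to 0.41 for Ciita, -0.88 to 0.38 for H2-DMa and -0.53 to 0.35 for H2-DMb1. Without both libraries the values were 0.59 for H2-Aa, 0.59 for H2-Ab1, 0.65 for H2-Eb1, 0.51 for Cd74, 0.53 for H2-DMa and 0.54 for H2-DMb1. H2-DMa was at 0.0020 and H2-DMb1 at 0.069 by limma voom, and H2-DMb1 at 0.0023 with total counts. The cause was not tested.

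Whether equal replicate tags pair the libraries was not settled. Same-tag correlations of deviations between tissues were 0.10, -0.008 and 0.061 in WT and -0.163 and -0.095 in KO. Those of different tags ran from -0.179 to 0.148 in WT and from -0.390 to 0.348 in KO. Correlations this few and this spread cannot show or exclude a shared animal. With the tag as a replicate block, H2-Ab1 in KO colon minus jejunum was at 0.22, the median of the 7 in KO minus WT colon was -1.21, and no call changed. The count of all genes called moved far more than that of the 7. In KO minus WT colon it was 81, with 960 by DESeq2, 0 with only the 6 libraries of that tissue, 309 without both libraries and 7 to 180 with 1 library left out. In KO minus WT jejunum it was 45, with 805 by DESeq2, 76 by limma voom, 77 with the block, 26 with total counts, 21 with that tissue alone, 145 without both libraries and 2 to 172 with 1 left out. In WT colon minus jejunum it was 325, with 1160 by DESeq2, 29 with the block, 1056 without both and 79 to 557 with 1 left out, and in KO 270, with 1427, 3, 694 and 40 to 613. For the difference between tissues it was 0, with 37 by DESeq2. Macrophage-like WT nuclei were at 2813 CPM at resolution 2.0, where nuclei with dendritic cell markers formed their own group, and mesothelial-like KO nuclei at 98.5 with at least 1000 UMIs per nucleus. Only 3 libraries per group and 1 library of nuclei per genotype limit every comparison.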

Other observations

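The nuclei files also held counts of open chromatin regions, called separately in each library and not compared between them. Regions within 1000 bp of a gene start were listed for H2-Aa, H2-Ab1, H2-DMa and H2-DMb1 in both libraries and for Cd74 in the KO library. The starts are those in the deposited feature files, and for H2-Ab1 and H2-DMa they differ from the start of the gene span given in the report. Only 11.6% of WT and 11.5% of KO region values were odd, so region counts may come in pairs. The Poisson intervals below take counts as independent and may be too narrow, so no separation of groups is read from them. In the KO library, the H2-Aa region had 119 counts per 1000000 region counts (66.7 to 197, exact 95% Poisson interval) in macrophage-like nuclei, from 15 counts, and 28.3 (10.4 to 61.5) in smooth muscle-like nuclei, from 6. It was at 117 (64.2 to 197, from 14 counts) in KO enteric glia-like nuclei and at 86.7 (41.6 to 159) in KO fibroblast-like nuclei. In the WT library the same gene had 39.97 (4.84 to 144), from 2 counts, and 22.7 (11.7 to 39.6), from 12. The H2-Ab1 region was at 143 (84.8 to 226) in KO macrophage-like and 56.5 (29.2 to 98.7) in KO smooth muscle-like nuclei, and at 119.9 (44.0 to 260.97, from 6 counts) and 49.1 (32.1 to 72.0, from 26) in WT. The H2-DMb1 region had 0 counts (up to 73.7) in WT macrophage-like and 32.1 (18.7 to 51.4) in WT smooth muscle-like nuclei, and 47.7 (17.5 to 104) and 28.3 (10.4 to 61.5) in KO. The Cd74 region of the KO library was at 199 (129 to 293, from 25 counts) in macrophage-like nuclei. In KO smooth muscle-like nuclei it was at 37.7 (16.3 to 74.2, from 8). The H2-DMa regions were at 240 (from 12 counts) in WT macrophage-like and 176 (from 93) in WT smooth muscle-like nuclei. In KO the H2-DMa region was at 135 (from 17) and 65.9 (from 14). The H2-Aa and H2-Ab1 regions thus held counts in smooth muscle-like nuclei. H2-Aa RNA had 1 UMI there in WT and 3 in KO, and H2-Ab1 RNA had 6 and 4.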
